A study of Mus musculus with 8 samples.

Results

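The genes described here encode proteins that shape the membrane of the endoplasmic reticulum (ER) or mark parts of it for degradation. They are the REEP genes Reep3, Reep4, Reep5 and Reep6, the reticulon genes Rtn3 and Rtn4, the atlastin genes Atl2 and Atl3, Ckap4, which encodes the sheet protein CLIMP-63, and Fam134b, whose current symbol is Retreg1. All 10 were found by symbol among the 24413 gene symbols counted, and all 10 passed the filter on low counts that left 9904 genes. Reep6 passed it through the knockout libraries alone. The genes were selected on their protein function with the fold changes and adjusted p-values between knockout and control in these same libraries already known. For them that contrast is therefore a description and not independent evidence.

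The libraries came from mouse plasmablasts, antibody-secreting cells that still divide and that activated B cells give rise to. B220+ B cells from the spleens of C57BL/6J mice were kept in culture with lipopolysaccharide (LPS, 25 µg/ml), a bacterial product that makes B cells divide and secrete antibody, and CD22-CD138+ cells were sorted after 4 days. The Jagn1 knockout group (genotype Jagn1fl/fl Mb1Cre+, 4 libraries) carried floxed alleles of Jagn1, an ER membrane protein gene, and Mb1-Cre, a recombinase expressed in the B cell lineage from the Cd79a locus. The control group (Jagn1fl/fl, 4 libraries) carried the floxed alleles with no Cre listed, so a control for Cre alone is not among these groups. The labels give 4 mice per genotype and no ages. Jagn1 had 1 or 2 counts in each knockout library and 16 to 99 in each control library, which matches the labels.

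Library totals ran from 5882912 to 10066661 counts. The plasmablast genes Jchain and Mzb1 stood at 7506 ± 1881 and 20591 ± 1069 CPM (counts per 1000000 counts of the library's scaled total) in the control, and Cd22, which encodes the marker sorted against, at 6.82 ± 3.41 CPM (SD, n = 4). Over 10 plasmablast markers, control libraries summed to 27392 to 34471 CPM and knockout libraries to 21201 to 27259 CPM, most of it Mzb1, which was not called. In edgeR 5 of the 10 were called lower and none higher, beside 3.19% and 2.54% of all genes. These were Cd93, Slamf7, Jchain, Tnfrsf17 and Sdc1, which encodes the sorted marker CD138 and had means of 41.1 and 19.6 CPM in control and knockout (edgeR adjusted p = 0.00635). Over 9 B cell markers the sums were 907 to 1172 CPM and 843 to 961 CPM. Of the 8 tested only Cd79a, the locus that carries the Cre, was called, at -1.04 on the log2 scale (edgeR adjusted p = 0.00313). Over 8 T and NK cell markers the sums were 9.04 to 13.1 CPM and 5.50 to 7.32 CPM, with Ncr1 at 0 in all libraries. Myeloid markers summed to at most 3.16 CPM in any library, with Lyz2, S100a8, S100a9, Mpo and Cd14 at 0, and erythroid and platelet markers to at most 0.240 CPM. Marker levels therefore differed between the groups, and their part in the results below was not tested. In such bulk samples, fewer cells of a type and less RNA per cell cannot be told apart. Control replicates 1 and 4 lay farthest from their group mean, at a root mean square log2 deviation of 0.594 and 0.581. The remaining libraries had 0.324 to 0.432.

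The ER is one continuous membrane of flat sheets and curved tubules. Reticulons and REEP proteins insert hairpins that curve the membrane into tubules, atlastins are GTPases that fuse tubules into a network, and CLIMP-63 is a coiled-coil protein that keeps the faces of a sheet apart. ER-phagy is the removal of ER by autophagy, and its receptors carry a short motif that binds LC3 or GABARAP proteins on the autophagosome. FAM134B is a receptor best known for sheets, while a long form of RTN3 and ATL3 act on tubules. Plasma cells expand their ER, mostly as stacked rough sheets, to make antibody.

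Promoter sequence is shown for the genes whose levels were lower in the knockout and for Ckap4, whose level was near that of the control. The RefSeq promoter table (GRCm38.p6) held entries for 6 of the 10 genes, in 11 windows of 300 bases. It has no entry for Reep3, Reep4, Reep5 and Reep6. Each sequence gives the 250 bases before the start listed in that table, read 5′ to 3′ on the strand of the gene. GENCODE M21 places the 5′ ends of Ckap4 (84534062) and Fam134b (25843180) inside these windows. By that annotation, part of each of these 2 sequences lies within the gene. Capitals mark CCACG or its reverse complement. That word is the second part of the ER stress element, to which the stress factors ATF6 and XBP1 bind. The Rtn3 sequence is chr19:7483292-7483541 on the minus strand, that of Fam134b is chr15:25843048-25843297 on the plus strand, before the first of its 4 listed starts, and that of Ckap4 is chr10:84533889-84534138 on the minus strand.
Rtn3: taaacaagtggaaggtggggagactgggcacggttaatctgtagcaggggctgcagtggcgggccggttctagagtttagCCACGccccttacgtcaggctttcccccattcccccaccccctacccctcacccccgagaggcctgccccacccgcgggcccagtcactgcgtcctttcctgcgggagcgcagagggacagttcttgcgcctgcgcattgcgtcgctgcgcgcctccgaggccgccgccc
Fam134b: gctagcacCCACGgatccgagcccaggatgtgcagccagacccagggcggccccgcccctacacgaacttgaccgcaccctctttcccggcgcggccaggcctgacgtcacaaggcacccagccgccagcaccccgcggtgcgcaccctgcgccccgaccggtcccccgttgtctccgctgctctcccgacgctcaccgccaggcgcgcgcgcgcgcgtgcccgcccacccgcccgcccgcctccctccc
Ckap4: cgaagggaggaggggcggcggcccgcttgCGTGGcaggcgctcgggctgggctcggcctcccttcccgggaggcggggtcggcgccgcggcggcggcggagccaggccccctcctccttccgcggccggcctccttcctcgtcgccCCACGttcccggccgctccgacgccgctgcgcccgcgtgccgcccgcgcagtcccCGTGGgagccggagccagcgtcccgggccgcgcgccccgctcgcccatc

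Rtn3 and the first Fam134b start held 1 CCACG word each and Ckap4 held 3. The word was not particular to these genes. The Atl2 window, 1 of the Rtn4 windows and another Fam134b window held it too, and the remaining windows did not. On both strands 32.8% of the 32851 promoter windows in the table, those on chromosome 18 included, held the word. The whole ER stress element, CCAAT and CCACG at their fixed spacing, which thus contains that word, was in none of the 11 windows and in 0.119% of all windows. The element bound by ATF4, TGATGNAAN, was likewise in none of the 11 and in 3.95% of all. These matches describe letters in a window and say nothing of whether a factor binds there.

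In control plasmablasts 2 of these genes gave most of the tags. The kit counts tags at transcript ends, so CPM were compared between genes without division by length. Rtn3 stood at 858 ± 45.2 CPM, above 98.5% of the genes tested, and Ckap4 at 391 ± 17.6 CPM, above 96.4% (SD, n = 4). Reep4 followed at 163 ± 7.01 CPM. The ranges of these 3 genes did not overlap each other or that of Reep5, the next in order, at 83.9 ± 9.01 CPM.

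Below these the order was less certain. Fam134b stood at 66.3 ± 8.38, Rtn4 at 54.2 ± 10.5, Reep3 at 34.3 ± 11.9, Atl3 at 32.7 ± 4.91 and Atl2 at 29.1 ± 4.23 CPM. Each of the neighbours from Reep5 down to Atl2 overlapped in range. Reep6 was last, at 0.386 ± 0.531 CPM. The paralogs Reep1, Reep2, Rtn1, Rtn2 and Atl1, which are best known from neurons, did not pass the filter on low counts, with control means of 0 to 0.561 CPM. In the knockout the first 4 places were the same, and Rtn4 stood above Fam134b in 4 of 4 libraries, against 1 of 4 control libraries.

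**Figure D1:**
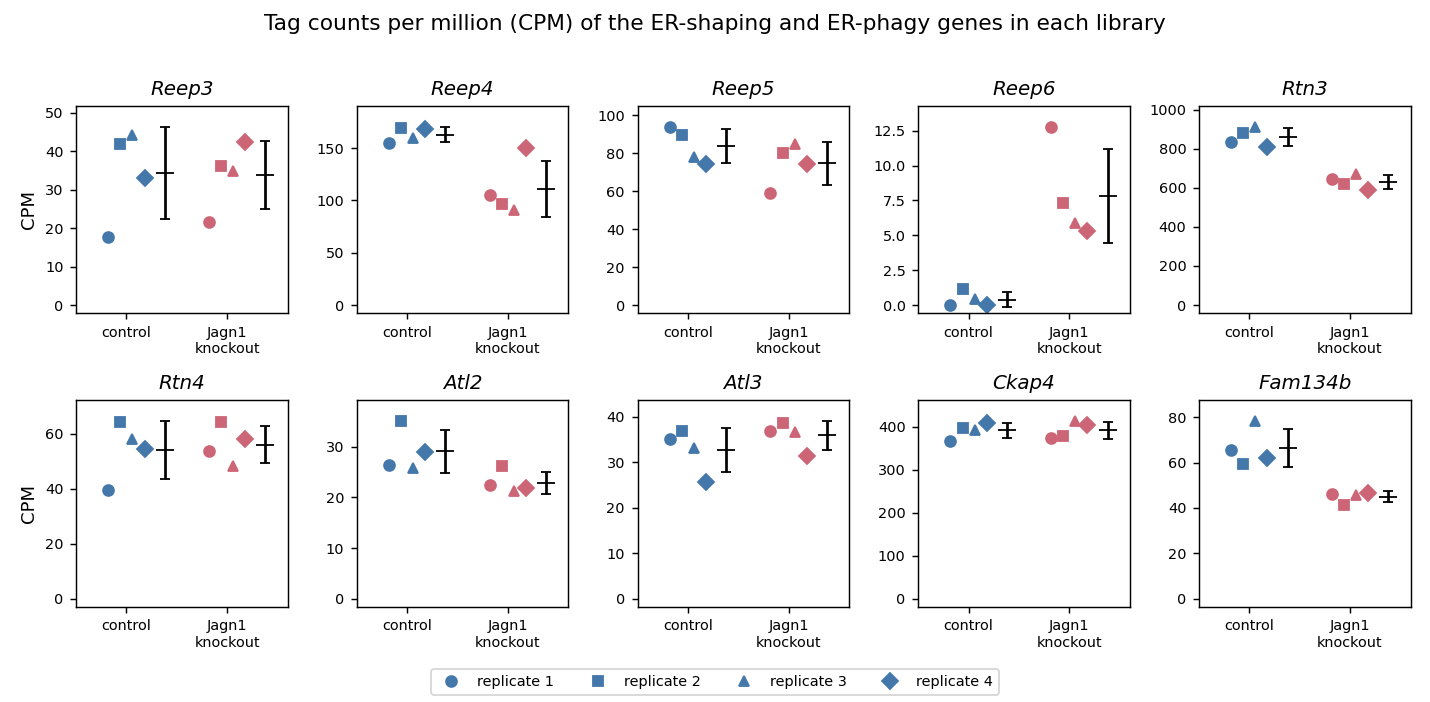
Level of each gene in every library, in CPM on linear axes that differ between genes. Symbols mark replicates 1 to 4 of the control (blue) and Jagn1 knockout (red), and black bars the mean ± SD (n = 4). The groups are apart for Reep4, Reep6, Rtn3 and Fam134b and overlap for the other genes.

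In the knockout Reep6 was higher and Rtn3 and Fam134b were lower, while most of these genes, Ckap4 among them, did not pass the test. In edgeR's quasi-likelihood test, adjusted over all 9904 genes at a threshold of 0.05, 1 of the 10 genes was called higher, where 2.54% of all genes were, and 2 of 10 were called lower, where 3.19% of all genes were (5.74% in either direction). The groups did not overlap for 4 of the 10, against 13.1% of all genes tested. Of these 1 lay above the control, where 6.45% of all genes did, and 3 lay below, where 6.63% did. Nothing is read from these counts, since the genes were chosen knowing the contrast. The median log2 fold change of the 10 genes was -0.09, beside -0.01 over all genes tested.

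The REEP family includes the gene with the largest difference. Reep6 encodes a protein related to REEP5 that is best known from photoreceptors and testis. Its place is chromosome 10, 80329953 to 80336441, plus strand (GRCm38, GENCODE M21, as for all genes below). Knockout replicates 1 to 4 held 95, 51, 45 and 44 Reep6 counts, or 12.7, 7.32, 5.89 and 5.28 CPM. Control replicates 1 to 4 held 0, 7, 3 and 0 counts, or 0, 1.13, 0.417 and 0 CPM. Every knockout library lay above every control library, and knockout replicate 1 was the highest. The counts of 0 in control replicates 1 and 4 allow up to 0.421 and 0.292 CPM (3 counts, counting error only).

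The fitted log2 fold change of Reep6 was 4.43 ± 0.77 (SE), with an adjusted p of 0.00264 (edgeR), and it passed in all 18 alternative fits. These fits reuse the libraries in which Reep6 was chosen, so they are not independent evidence. The size rests on few control counts. Leaving out control replicate 2, the source of 7 of the 10 control counts, gave 5.79, and leaving out control replicates 1 and 4 together gave 3.34. Pooled over libraries, the knockout rate was 23.8 times the control rate (exact 95% interval 12.7 to 50.4, counting error only). Without control replicate 2 it was 63.4 times (21.4 to 309.8).

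Reep5 encodes a major tubule-shaping protein, also called DP1, and lies on chromosome 18 (34344885 to 34374070, minus strand). Its level was 93.5, 89.3, 78.2 and 74.5 CPM in control replicates 1 to 4 and 59.0, 80.2, 85.0 and 74.2 CPM in knockout replicates 1 to 4. The groups overlapped, with knockout replicate 1 lowest. Its log2 fold change was -0.17 (95% interval -0.51 to 0.17, edgeR adjusted p = 0.650).

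Reep3 and Reep4 encode related proteins that clear ER membrane from chromosomes during mitosis. Reep4 lies on chromosome 14 (70545251 to 70548933, plus strand). It stood at 155, 169, 160 and 168 CPM in control replicates 1 to 4 and at 105, 96.6, 90.8 and 150.1 CPM in knockout replicates 1 to 4. All knockout libraries lay below all control libraries, and knockout replicate 4 lay close to the control. At -0.56 ± 0.16 (95% interval -0.91 to -0.21) the log2 difference did not pass (edgeR adjusted p = 0.0625).

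The Reep4 call depended on the fit. Without knockout replicate 4 the log2 fold change was -0.74 (edgeR adjusted p = 0.0107). It also passed without control replicate 1 (0.0288), without control replicate 4 (0.0478), without both (0.0307), with DESeq2 (0.0253) and with limma-voom (0.00499). Over all 18 alternatives the adjusted p ranged up to 0.230. Genes of the G2/M phase were also lower in sum in the knockout. Over 14 of them, control libraries summed to 2811 to 3272 CPM and knockout libraries to 1700 to 2134 CPM. The highest knockout sum was that of replicate 4 (2134 CPM), with replicate 1 close to it (2069 CPM). Reep4 itself stood at 150.1 CPM in knockout replicate 4 and 105 CPM in knockout replicate 1. Of the 14 genes 7 were called lower and none higher, beside 3.19% and 2.54% of all genes. Among them the mitotic kinase gene Plk1 differed by -0.93 on the log2 scale (edgeR adjusted p = 0.00419) and the cyclin gene Ccnb1 by -0.84 (0.0428). Within the knockout Plk1 was highest in replicate 4 (211 CPM) and Ccnb1 in replicate 1 (43.4 CPM). The part of the G2/M genes in the Reep4 difference was not tested.

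Reep3, on chromosome 10 (67009189 to 67096945, minus strand), varied more within groups than between them. It stood at 17.8, 42.0, 44.1 and 33.2 CPM in control replicates 1 to 4 and at 21.6, 36.2, 34.8 and 42.5 CPM in knockout replicates 1 to 4. The lowest value in each group was that of replicate 1. On the log2 scale the difference was -0.02 (95% interval -0.59 to 0.56, edgeR adjusted p = 0.984), which includes both lower and higher levels of about the size seen for Reep4. Its exons share 941 bases with the antisense gene Gm31763. No strand setting is stated for the counting, so whether reads of the pair were kept apart is not known.

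The 4 REEP genes summed to 281 ± 15.1 CPM in control libraries and to 227 ± 31.6 CPM in knockout libraries (SD, n = 4 each), with knockout replicate 4 at 272 CPM inside the control range of 266 to 302 CPM. Reep6 made up 0.13 ± 0.18% of these tags in the control and 3.60 ± 1.96% in the knockout. Reep4 made up 57.9 ± 2.19% and 48.5 ± 6.57%. Even at its knockout level Reep6 thus contributed far fewer tags than Reep5, whose share was 29.9 ± 3.71% and 33.2 ± 5.61%. The summed level of Reep5 and Reep6 was 84.3 ± 9.16 CPM and 82.4 ± 8.59 CPM in control and knockout.

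**Figure D2:**
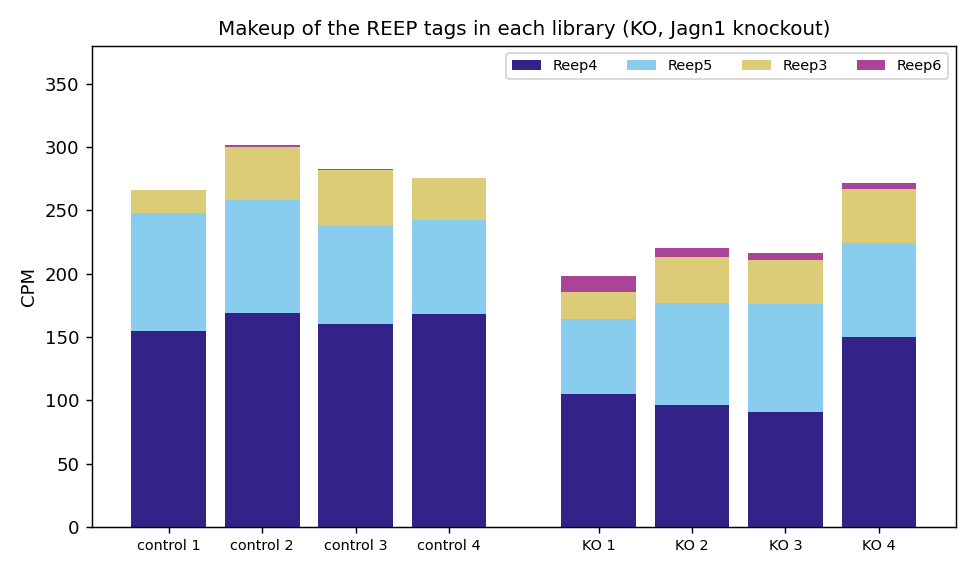
Stacked CPM of the 4 REEP genes in each of the 8 libraries, on a linear axis from 0. Reep6, the top segment, is visible in all 4 knockout libraries and at most a thin line in the control, and the total of knockout replicate 4 (272 CPM) reaches the control range.

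Of the reticulons, Rtn3 was lower in the knockout and Rtn4 did not pass the test. Rtn3 lies on chromosome 19 (7425901 to 7483281, minus strand). It stood at 832, 881, 909 and 809.7 CPM in control replicates 1 to 4 and at 645, 619, 671 and 586 CPM in knockout replicates 1 to 4. The groups were well apart, with a lowest control value above the highest knockout value by more than the SD of either group. This was a log2 fold change of -0.44 ± 0.12, or 0.735 times the control level (edgeR adjusted p = 0.0465).

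Rtn4, which encodes the Nogo proteins, lies on chromosome 11 (29692947 to 29744331, plus strand). Its control values were 39.7, 64.5, 58.1 and 54.4 CPM and its knockout values 53.6, 64.2, 48.5 and 58.1 CPM in replicates 1 to 4. The groups overlapped, with control replicate 1 lowest. With a log2 fold change of 0.05 (95% interval -0.33 to 0.43, edgeR adjusted p = 0.927) it did not pass. Its exons share 1284 bases with Eml6 on the opposite strand, so its reads carry the same uncertainty as those of Reep3. Because Rtn3 gave 94.1 ± 0.972% of the tags of both reticulons in the control and 91.8 ± 1.23% in the knockout, their sum followed Rtn3, at 912 ± 51.9 and 686 ± 31.7 CPM. Rtn3 and Rtn4 each have several coding transcripts, 5 and 6 in the annotation, which end at 2 and 3 positions, so counts per gene do not separate the short and long forms.

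The atlastins did not pass the test. Atl2, on chromosome 17 (79848390 to 79896123, minus strand), stood at 26.4, 35.1, 25.9 and 29.0 CPM in control replicates 1 to 4 and at 22.4, 26.1, 21.3 and 21.9 CPM in knockout replicates 1 to 4. Knockout replicate 2 alone reached into the control range. Its log2 fold change of -0.34 (95% interval -0.74 to 0.06) had an edgeR adjusted p of 0.367.

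Atl3, on chromosome 19 (7494040 to 7539674, plus strand), stood at 35.1, 36.8, 33.1 and 25.7 CPM in control replicates 1 to 4 and at 36.9, 38.6, 36.7 and 31.3 CPM in knockout replicates 1 to 4. The groups overlapped, and replicate 4 was lowest in both. The fitted log2 difference was 0.14 (95% interval -0.25 to 0.52, edgeR adjusted p = 0.764). Atl3 made up 52.9 ± 4.68% of the atlastin tags in the control and 61.0 ± 2.04% in the knockout, and the control range of 47.0 to 57.1% lay below the knockout range of 58.9 to 63.2%. The sum of both was 61.7 ± 7.34 and 58.8 ± 4.75 CPM.

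Ckap4, on chromosome 10 (84526305 to 84534062, minus strand), stood at 367, 396, 393 and 409 CPM in control replicates 1 to 4 and at 373, 378, 413 and 404 CPM in knockout replicates 1 to 4. The groups overlapped over most of their range. The log2 fold change was 0.0024 with a 95% interval of -0.26 to 0.26 (edgeR adjusted p = 0.996), so a difference of the size seen for Rtn3 lies outside the interval. The ratio of Ckap4 to Rtn3 tags within a library was 0.457 ± 0.033 in the control (0.432 to 0.506) and 0.624 ± 0.0472 in the knockout (0.578 to 0.690). The sheet protein gene and the reticulon gene thus stood in a different proportion in every library of the 2 groups, which shows unequal change and does not show which of them changed.

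Fam134b encodes the ER-phagy receptor of sheets and was lower in the knockout. It lies on chromosome 15 (25843180 to 25973687, plus strand), with 8 coding transcripts. It stood at 65.6, 59.4, 78.3 and 62.0 CPM in control replicates 1 to 4 and at 46.0, 41.3, 45.6 and 46.6 CPM in knockout replicates 1 to 4. All knockout libraries lay below all control libraries, and control replicate 3 was the highest. This was a log2 fold change of -0.56 ± 0.16, or 0.677 times the control level (edgeR adjusted p = 0.0461). Full-length and shorter forms start at different promoters and are not separated here.

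The calls of Rtn3 and Fam134b were close to the threshold. Each was lost when control replicate 2, control replicate 3 or any single knockout replicate was left out, with adjusted p up to 0.172 for Rtn3 and 0.179 for Fam134b (edgeR). Without the filter on low counts the values were 0.0782 and 0.0751. Both passed without control replicates 1 and 4, singly or together, and with DESeq2 and limma-voom. Their log2 fold changes stayed within -0.50 to -0.41 and -0.62 to -0.47 over the 18 alternatives. The 3 receptor genes Fam134b, Rtn3 and Atl3 summed to 957 ± 53.4 CPM in control libraries and 711 ± 38.3 CPM in knockout libraries. Most of it was Rtn3, whose short and long forms are not separated by these counts.

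**Figure D3:**
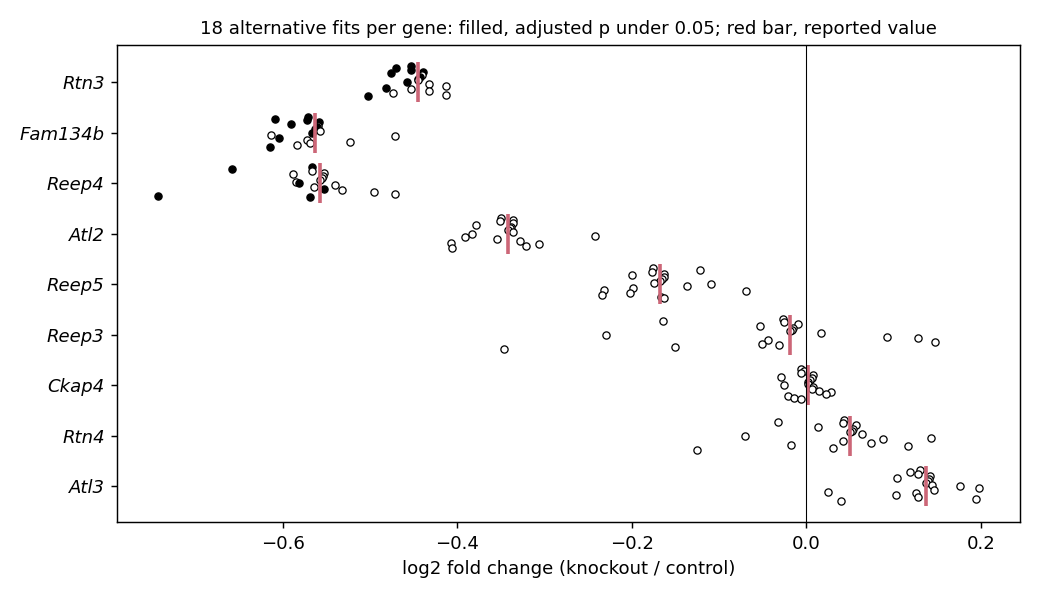
Log2 fold changes (knockout over control) of 9 genes in the 18 alternative fits, with filled circles where the adjusted p was under 0.05 and a red bar at the reported value. Reep6, which passed in all 18 at 3.34 to 5.79, is left out for scale. Rtn3 and Fam134b stay below 0 but are filled in 10 of 18 fits each, and Reep4 in 6.

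Of 30 other ER-shaping genes 24 were tested and none was called in edgeR, where 5.74% of all genes were. At an unadjusted p under 0.05 there were 6 of them, where 18% of all genes were. The 24 genes had a median log2 fold change of 0.08. DESeq2 called 1 and limma-voom 3. Tmcc3, whose protein sits at ER junctions, had means of 24.4 and 48.2 CPM in control and knockout, 0.98 ± 0.28 on the log2 scale (edgeR adjusted p = 0.0518). It passed in 8 of 18 alternatives, among them those without control replicate 1 or 4. Arl6ip1, another hairpin protein gene, differed by -0.48 ± 0.16 on the log2 scale (edgeR adjusted p = 0.108) and passed in 2, among them the fit without control replicate 1.

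Of 16 other ER-phagy receptors and genes of UFMylation, the ubiquitin-like modification of ER proteins that ER-phagy of sheets uses, none was called by edgeR, again beside 5.74% of all genes, and 2 had an unadjusted p under 0.05, beside 18% of all genes. Their median was 0.09. DESeq2 called 0 and limma-voom 1. Ufc1, which encodes the conjugating enzyme of UFM1, differed by 0.37 ± 0.15 on the log2 scale (edgeR adjusted p = 0.185) and passed in none of the alternatives. Of 25 autophagy core genes 1 was called higher and none lower, beside 2.54% and 3.19% of all genes, with a median of 0.30. In lists of this length the counts of the 3 lists are near the shares over all genes. That gene was Sqstm1, the autophagy receptor p62, which rose from 212 to 773 CPM, or 1.87 ± 0.16 on the log2 scale (edgeR adjusted p = 8.82e-06), and passed in all 18 alternatives. Without control replicate 1 or 4 the count was 2.

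**Figure D4:**
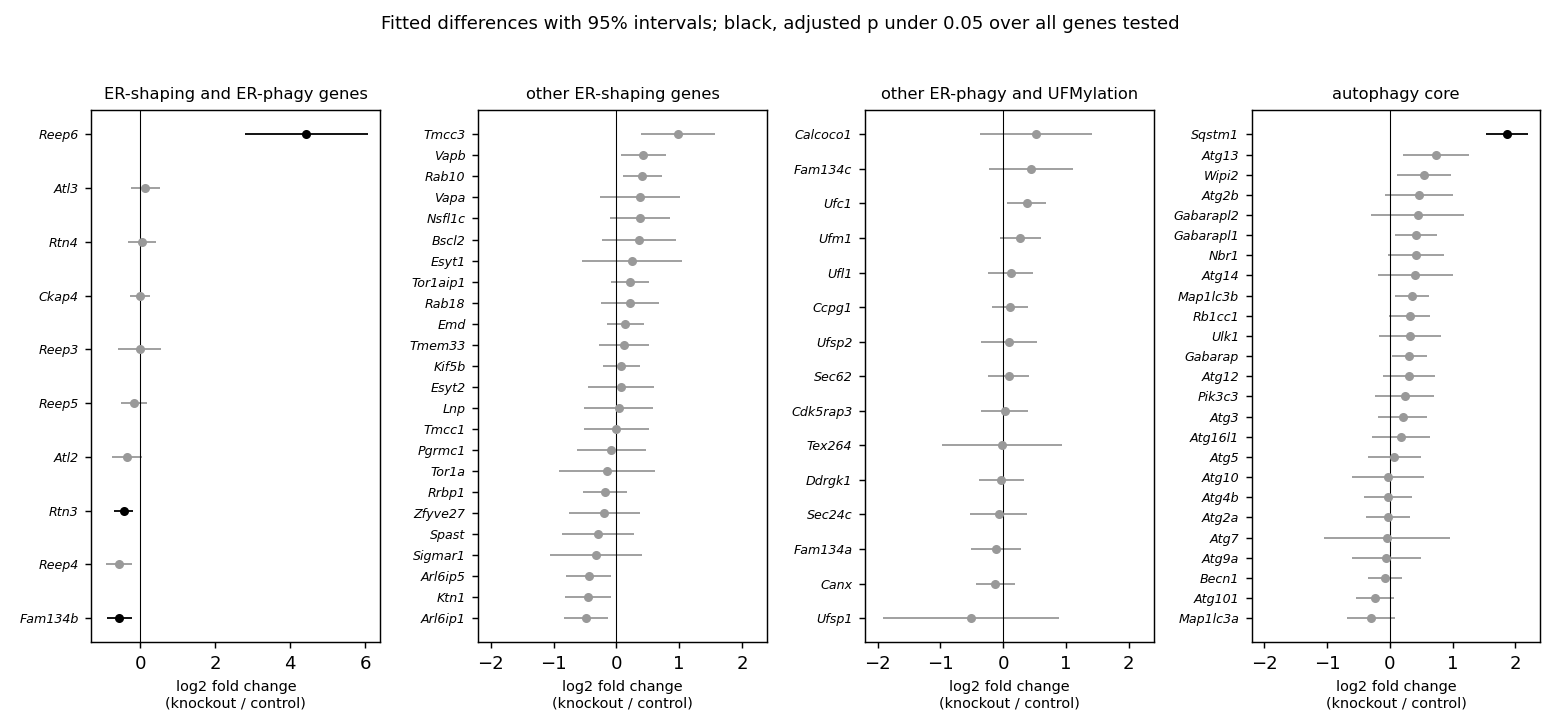
Log2 fold changes (knockout over control) with 95% intervals for the tested genes of each list (1 gene of the third list is not shown), black where the adjusted p over all genes was under 0.05 and grey otherwise. The axis of the first panel is wider, to hold Reep6 at 4.43. Black points are Reep6, Rtn3, Fam134b and Sqstm1.

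The genes whose pattern was most like that of Reep6 were sought over the 8 libraries, as the smallest root mean square difference between log2 CPM centred on each gene's mean. They were Gm13889 (0.383), Irg1 (0.505), Vldlr (0.576), Angptl6 (0.632) and Nupr1 (0.668). Gm13889 is a predicted gene, Irg1 encodes the enzyme that makes itaconate, Vldlr a lipoprotein receptor, Angptl6 a secreted angiopoietin-like protein and Nupr1 a stress-induced nuclear protein. All had control levels far under their knockout levels, with 0.276 and 5.41 CPM for Gm13889 and 4.78 and 78.1 CPM for Nupr1. For Fam134b they were Shisa5 (0.0701), Sept6 (0.0846), Cpeb3 (0.0895), Ppat (0.0908) and Cnot6l (0.0918). Their log2 fold changes ran from -0.66 for Cpeb3, an RNA-binding protein gene, to -0.45 for Cnot6l, a deadenylase gene, and Shisa5 (edgeR adjusted p = 0.0159) and Cpeb3 (0.00665) were called. Shisa5 kept its call in 14 of 18 alternatives and Cpeb3 in all 18. The measure includes the difference between the groups, which was known when Reep6 and Fam134b were chosen.

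The transcript ends of the 10 genes, where the tags lie, were checked for sequence shared with other genes. None of the 50-base words in the last 300 bases of their coding transcripts was found in an annotated transcript of another gene. Words were searched in the direction of the transcripts only. The check therefore does not cover genes on the opposite strand, such as those that overlap Reep3 and Rtn4.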

How the data were processed

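Per the labels' protocols, QuantSeq 3′ mRNA-Seq (FWD) libraries were made from 500 ng of Trizol-extracted total RNA each. The authors deposited 1 file per library, with unnormalized whole-number counts for each gene symbol. The submitters' processing notes name HTSeq 0.6.1, TopHat2 2.1.1, BWA 0.7.12, SAMtools 1.3.1 and the mm10 build. The step each tool did, the annotation and the strandedness were not given in the sources used here. No molecular identifiers are stated, so counts may include PCR copies. Libraries of a group differed by more than sampling noise (chi-square per degree of freedom 6.60 to 94.2).

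Genes were filtered with filterByExpr (minimum count 10, minimum total 15) and scaled by TMM. Knockout and control were compared with edgeR 4.0.16 (R 4.3.3), the robust quasi-likelihood test with group as the only term, two-sided, adjusted by Benjamini-Hochberg over all 9904 genes. SE was taken as log2 fold change over the root of F. CPM were computed on totals scaled by TMM, and log2 CPM with a prior count of 2. On simulated counts of this comparison (9711 genes) the test recovered 10.4% of true 1.5-fold changes, 62.7% of 2-fold and 95.5% of 4-fold ones, with 3 false among 115 calls. Changes were placed only in genes above a minimum mean CPM over all libraries, which Reep6 does not reach. These recovery values therefore do not cover genes as low as Reep6. Alternatives were DESeq2 1.42.0, limma-voom (limma 3.58.1), other scalings and filters, a fit that was not robust, a replicate block and leaving out libraries.

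The genes and all lists were chosen with earlier results of these data known. Genes named beside the 10 and Jagn1 are, in each further list, up to 6 called genes or else the 2 with the smallest p, Plk1 and Ccnb1, the marker genes, and the 5 nearest to Reep6 and Fam134b. A gene that this rule names is not reported here. The low paralogs of the families were named after their values were seen.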

Additional observations from a re-analysis of the deposited data

Results flagged for a closer look

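In 36 groups of 4 libraries (10 genes, Jagn1 and 7 summed sets, each in both groups), the highest or lowest library was checked for an unusually wide gap to its nearest neighbour (Dixon's test). Chance gives about 1 such group in 20 for continuous values. The summed sets share genes with each other, and Jagn1 counts of 1 or 2 are not continuous. The summed level of Reep3 and Reep4 was 193 CPM in knockout replicate 4, against 126 to 133 CPM in the other knockout libraries. Jagn1 stood at 0.268 CPM in knockout replicate 1, which is 2 counts, against 1 count each, or at most 0.144 CPM, in the other knockout libraries.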

How the results depend on the processing

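Depth limits Reep6, whose control level rests on 10 counts in all. The number of genes called in the whole table was 568, 1054 with limma-voom, 901 without control replicates 1 and 4, and 270 to 892 when 1 library was left out. Of the 10 genes 1 was higher in every fit. The count of lower genes was 2, and it was 0 without a filter on low counts, 0 with a replicate block (edgeR adjusted p of 0.101 for Rtn3 and 0.0814 for Fam134b) and 0 to 3 when 1 library was left out. The cause was not tested. Same-numbered libraries of the groups deviated together with correlations of only -0.0034 to 0.0662, and only control replicate 4 correlated best with its own number, so the block rests on a number alone. Under the block the whole table gave 243 higher and 266 lower genes.

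Among other ER-shaping genes the count of 0 was 1 with DESeq2, 3 with limma-voom, 1 with upper quartile scaling, 1 without a filter, 1 with the replicate block, 2 without control replicates 1 and 4, and 0 to 2 when 1 library was left out. Among other ER-phagy genes it was 1 with limma-voom, 1 without control replicates 1 and 4, and 0 to 1 when 1 library was left out. Among autophagy core genes the count of 1 was 3 with limma-voom, 2 without control replicates 1 and 4, and 1 to 2 when 1 library was left out.

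Values near 0 changed sign. Reep3 was at 0.017 with the replicate block and -0.23 to 0.15 when 1 library was left out. Rtn4 was at -0.032 with limma-voom, -0.13 without control replicates 1 and 4, and -0.070 to 0.14 when 1 library was left out. Ckap4 was at -0.0057 with DESeq2, -0.0023 with limma-voom, -0.0062 with DESeq2 size factors, -0.029 with library totals, -0.0058 without control replicates 1 and 4, and -0.025 to 0.029 when 1 library was left out. Reep4, Reep5, Reep6, Rtn3, Atl2, Atl3 and Fam134b kept their direction in all 18 alternatives. The knockout to control ratio of summed CPM was 0.75 to 0.84 for the REEP genes, 0.72 to 0.77 for the reticulons and 0.90 to 1.01 for the atlastins over 12 alternatives.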

Other observations

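Some genes that did not pass the edgeR test had knockout libraries that all lay above all control libraries, as 6.45% of all genes tested did. They are named after their values were seen. In the autophagy core list these were Map1lc3b and Gabarapl1, which encode proteins of the LC3 and GABARAP family that ER-phagy receptors bind, and Wipi2. Map1lc3b had means of 190 and 242 CPM in control and knockout (log2 difference 0.35 ± 0.13, edgeR adjusted p = 0.145). Gabarapl1 stood at 77.2 and 103 CPM (0.42 ± 0.16, edgeR adjusted p = 0.165). Wipi2 stood at 31.9 and 46.5 CPM (0.54 ± 0.20, edgeR adjusted p = 0.157). Among other ER-shaping genes they were Tmcc3, Rab10, Vapb and Tor1aip1. Rab10, a GTPase gene of ER tubule growth, differed by 0.42 ± 0.15 on the log2 scale (edgeR adjusted p = 0.125), and Vapb, an ER contact site gene, by 0.43 ± 0.17 (edgeR adjusted p = 0.179). Ufc1, described above, was of this kind among the other ER-phagy and UFMylation genes. With called genes included, 4 of 25 autophagy core, 4 of 24 other ER-shaping and 2 of 16 other ER-phagy genes lay wholly above the control. None of these lists held a gene wholly below it, where 6.63% of all genes tested were.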
